A study of Homo sapiens with 2 samples.

Results

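Forkhead transcription factors are proteins that bind DNA through a shared winged-helix domain, and their genes are named FOX with a letter for the subclass and a number for the member. In the early embryo FOXA factors open chromatin for endoderm genes, FOXC and FOXF factors act in mesoderm and blood vessels, and FOXH1 carries Nodal and activin signals to DNA together with SMAD proteins. FOXO factors are kept out of the nucleus by AKT, and FOXM1 drives genes of G2 and mitosis.

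Forkhead genes were taken by symbol from the expression tables of 2 RNA-Seq libraries, as FOX, a letter from A to S and a number, with at most 1 further symbol part. This gave 45 of the 17397 genes listed, in 18 subclasses. A further 6 human genes whose symbols have this form (FOXD3, FOXL3, FOXN1, FOXO3B, FOXR1 and FOXR2) were not analysed here.

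The libraries came from H1, a line of human embryonic stem cells, at day 4 of hematopoietic differentiation. One was wild type (WT) and the other was MEIS2-/-, made with CRISPR/Cas9 from a lentiviral vector under puromycin selection and expanded from single cells. The labels do not say which homozygous clone was sequenced or whether more than 1 was, so clones cannot be compared. Both cultures were treated alike. For the first 2 days the medium held activin A (50 ng/ml) with BMP4 (40 ng/ml), and for the next 2 days bFGF (50 ng/ml) with VEGF (40 ng/ml).

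Levels are given in FPKM, a fragment count scaled to transcript length and library size, which allows genes of different length to be compared. The depth of the libraries is unknown. Each log2 fold change is the log2 ratio of MEIS2-/- to WT with 0.1 FPKM added on both sides, so changes of low genes are understated, and genes under 1 FPKM in both libraries were not compared. There was 1 library for each genotype, so differences could not be set against replicates and no test was possible. A change is counted here when it reached 2-fold. MEIS2 mRNA itself was at 10.85 FPKM in WT and 3.44 FPKM in MEIS2-/- cells, a log2 ratio of -1.63, so the library labelled MEIS2-/- still held MEIS2 reads. The paper identified its knockout clones by western blot and DNA sequencing, and mRNA reads do not measure protein.

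Of the 45 forkhead genes, 25 reached 1 FPKM in one library or both. In MEIS2-/- cells, 4 genes (16%) were at least 2-fold higher and 4 (16%) at least 2-fold lower, beside 7.84% and 7.97% of all 13075 genes compared. The higher genes were FOXQ1, FOXI3, FOXA1 and FOXP1, and the lower genes were FOXC1, FOXC2, FOXJ2 and FOXD1. A gene that reached 1 FPKM in a single library could only be higher there, so counts are also given over genes that reached it in both. Here these were 3 higher and 4 lower of 24, beside 688 higher and 697 lower of 12025 over all genes. The median change of the 25 genes was 0.00, against 0.12 for all genes compared, with 13 genes above 0 and 12 below. FOXF1 lay just under the threshold with a log2 fold change of -0.99, and FOXP1 and FOXD1 lay nearest to it on the other side with 1.18 and -1.23. The total forkhead mRNA was nearly equal in both libraries, at 304.61 FPKM in WT and 300.07 FPKM in MEIS2-/- cells, so the difference lay in which members made it up.

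**Figure D1:**
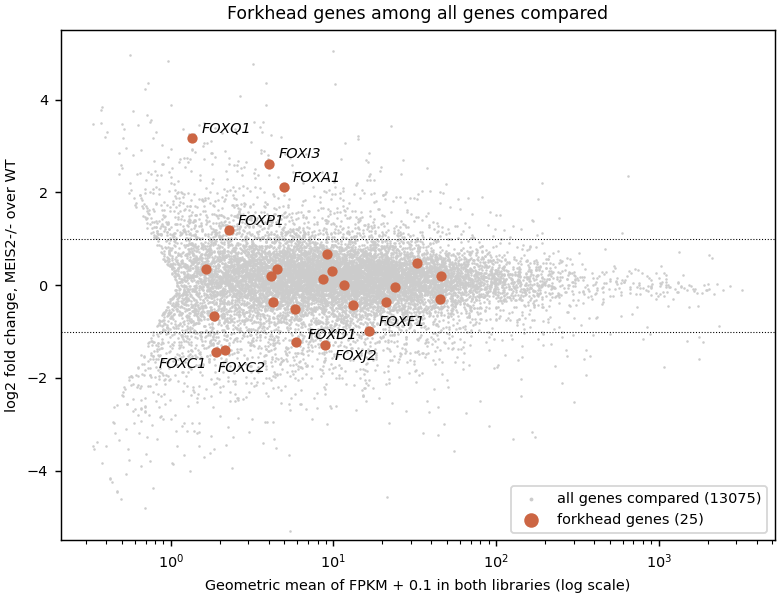
Each point is a gene that reached 1 FPKM in one library or both, with the geometric mean of its 2 levels after adding 0.1 FPKM (x axis, log scale) and its log2 fold change, MEIS2-/- over WT (y axis). The 25 forkhead genes (orange) are set against all 13075 genes (grey), dotted lines mark 2-fold, and 4 grey genes lie outside the y axis. FOXQ1, FOXI3 and FOXA1 stand above 2, and no forkhead gene stands below -1.43.

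The labelled stage was checked against markers of the cell types a culture at this stage could hold. Of 8 endothelium markers, all were lower in MEIS2-/- cells and 4 of the 7 compared were at least 2-fold lower (KDR, TIE1, CDH5 and ESAM), while EMCN was near 0 in both libraries at 0.11 FPKM and 0.03 FPKM. Their summed level was 398 FPKM in WT and 94.9 FPKM in MEIS2-/- cells. Of 8 blood markers, 4 reached 1 FPKM, 1 at least 2-fold higher and 2 at least 2-fold lower (0 and 1 of the 2 that reached it in both libraries), and the globin gene HBZ was listed at 0 in WT. No neuroectoderm marker of 6 listed reached 1 FPKM. In this bulk RNA, fewer cells of a type and less RNA per cell cannot be told apart.

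FOXA factors are the pioneer factors of endoderm, and all 3 genes were expressed. FOXA2 was among the most abundant forkhead genes, at 43.06 FPKM in WT and 49.12 FPKM in MEIS2-/- cells, at percentiles 89.4 and 90.5 of all listed genes. The difference was far below 2-fold, with a log2 fold change of 0.19. FOXA3, a paralog known from liver and gut, was at 15.21 FPKM in WT and 11.30 FPKM in MEIS2-/- cells, a log2 ratio of -0.43. FOXA1 was the member that differed most. FOXA1 was at 2.29 FPKM in WT and 10.22 FPKM in MEIS2-/- cells, a log2 ratio of 2.11. The ratio of FOXA1 to FOXA2 was accordingly 0.0532 in WT and 0.208 in MEIS2-/- cells, so FOXA2 stayed the main FOXA mRNA in both. FOXA1 and FOXA3 were nearly level in MEIS2-/- cells, where WT cells had several times more FOXA3 than FOXA1. Together the subclass made up 19.9% of all forkhead FPKM in WT and 23.5% in MEIS2-/- cells.

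Sequence upstream of the transcription start was examined for the 3 genes with the largest change among forkhead genes at 5 FPKM or more, FOXI3, FOXA1 and FOXJ2, to show what stands next to the start of the members that differed most. The 250 bases before the start are given as listed by RefSeq on GRCh38.p14, read 5′ to 3′ on the strand of the gene. Capitals mark TGTTTG or its reverse complement CAAACA, a short core that forkhead proteins can bind. The FOXA1 stretch lies on the minus strand at chr14:37595250-37595499, the FOXI3 stretch on the minus strand at chr2:88452694-88452943 and the FOXJ2 stretch on the plus strand at chr12:8032466-8032715.
FOXA1: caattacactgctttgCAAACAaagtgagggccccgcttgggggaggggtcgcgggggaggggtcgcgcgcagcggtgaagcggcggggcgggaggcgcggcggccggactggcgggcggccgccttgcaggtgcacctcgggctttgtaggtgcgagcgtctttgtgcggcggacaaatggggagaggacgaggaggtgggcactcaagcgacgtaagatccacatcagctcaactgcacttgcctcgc
FOXI3: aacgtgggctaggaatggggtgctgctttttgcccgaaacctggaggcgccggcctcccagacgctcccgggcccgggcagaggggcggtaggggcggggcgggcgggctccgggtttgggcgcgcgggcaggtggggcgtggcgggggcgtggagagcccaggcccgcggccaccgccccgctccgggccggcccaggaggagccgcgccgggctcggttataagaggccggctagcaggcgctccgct
FOXJ2: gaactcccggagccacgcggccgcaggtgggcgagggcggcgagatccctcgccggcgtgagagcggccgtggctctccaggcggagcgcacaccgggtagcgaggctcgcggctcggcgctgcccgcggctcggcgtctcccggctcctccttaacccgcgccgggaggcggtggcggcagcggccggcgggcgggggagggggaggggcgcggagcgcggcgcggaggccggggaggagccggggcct

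All 3 stretches were rich in G and C, with 67.2% in FOXA1, 77.2% in FOXI3 and 81.2% in FOXJ2. The FOXA1 stretch held 1 match to the forkhead core, and the other two held none. Promoter entries of 300 bases, with 50 of them after the start, were searched on both strands for 34 of the 45 forkhead genes. The other 11 were not searched. Entries may have existed for some of these 11, so the forkhead shares and those of all listed genes may not be built alike. TGTTTG was found for 8 of the 34 genes (23.5%) and for 15.6% of the 13893 listed genes with an entry. The 8 were FOXA1, FOXJ3, FOXP1, FOXQ1, FOXD4, FOXD4L1, FOXD4L3 and FOXD4L6, and the last 4 are near-identical copies. The longer core TGTTTAC was found for FOXO4 and FOXP1, 5.88% of forkhead genes against 3.69% of all. TGACAG, the core that MEIS proteins bind, was found for 4 of the 34 (11.8%), FOXB1, FOXD1, FOXI1 and FOXP3, and for 18.5% of all listed genes with an entry. Of the 18 compared forkhead genes that were searched, FOXD1 was thus the only gene to hold TGACAG. The matches in FOXD1, FOXQ1 and FOXP1 are shown in capitals with their surroundings, chosen after the values were seen because these genes differed at least 2-fold. They lie on the minus strand at chr5:73448807-73448836 for FOXD1, on the plus strand at chr6:1311888-1311917 for FOXQ1, and on the minus strand at chr3:71304872-71304901 and chr3:71245252-71245281 for FOXP1, whose 2 matches belong to different starts.
FOXD1: gtgcacaccatgTGACAGgcccccttctgc
FOXQ1: gccgacccaaaaCAAACAacctgcgccagc
FOXP1: aactgttgcctcTGTTTGagtaactctttt
FOXP1: aactatgttatTGTTTACtttaccatacac

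FOXC1 and FOXC2, which act in vessel and somite development and can bind endothelial enhancers together with ETS factors, were low in both libraries and lower in MEIS2-/- cells. FOXC1 was at 3.03 FPKM in WT and 1.06 FPKM in MEIS2-/- cells, a log2 ratio of -1.43. FOXC2 was at 3.39 FPKM in WT and 1.22 FPKM in MEIS2-/- cells, a log2 ratio of -1.40. The pair kept nearly the same balance, with a ratio of FOXC1 to FOXC2 of 0.894 in WT and 0.869 in MEIS2-/- cells. Both values ended just above the 1 FPKM limit, and with 1 FPKM added in place of 0.1 FPKM the log2 fold changes were -0.97 and -0.98, just under 2-fold.

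FOXF1 and FOXF2 mark lateral plate and splanchnic mesoderm, where hedgehog and BMP signals are known to act on them. FOXF1 was the more abundant of the pair, at 23.38 FPKM in WT and 11.73 FPKM in MEIS2-/- cells, 50.2% of the WT level. FOXF2 was at 4.69 FPKM in WT and 3.65 FPKM in MEIS2-/- cells, a log2 ratio of -0.35. The ratio of FOXF1 to FOXF2 was 4.99 in WT and 3.21 in MEIS2-/- cells. The log2 fold change of FOXF1, -0.99 as deposited, was -1.10 after setting the median log2 ratio of the libraries to 0 and -1.09 with TMM scaling, past 2-fold in both. Together FOXC and FOXF made up 2.11% and 9.22% of forkhead FPKM in WT, and 0.760% and 5.13% in MEIS2-/- cells.

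The FOXC and FOXF genes lie in 2 genomic clusters that arose by duplication, FOXQ1, FOXF2 and FOXC1 on chromosome 6 and FOXF1, FOXC2 and FOXL1 on chromosome 16. On chromosome 6 FOXQ1 was at 0.35 FPKM in WT and 3.99 FPKM in MEIS2-/- cells. FOXQ1 was compared through its MEIS2-/- level alone and could only be higher there, so no contrast with its neighbours is read. FOXC1 was lower, though just under 2-fold with 1 FPKM added, and FOXF2 was under 2-fold. Of other genes listed around this cluster, DUSP22 and EXOC2 (log2 fold changes of 0.29 and 0.21) and GMDS (0.59) stayed under 2-fold. IRF4, HUS1B and MYLK4 were below 1 FPKM in both libraries and were not compared. On chromosome 16 all 3 forkhead genes had lower values in MEIS2-/- cells. FOXL1, a factor of gut mesenchyme, was below the limit at 0.42 FPKM and 0.11 FPKM. MTHFSD, which lies among them, was slightly higher in MEIS2-/- cells, at 4.51 FPKM in WT and 5.88 FPKM, and FBXO31 and COX4I1 nearby had log2 fold changes of 0.04 and 0.14. C16orf95 had -0.69, so none of these neighbours reached 2-fold, and IRF8 was below 1 FPKM in both libraries.

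**Figure D2:**
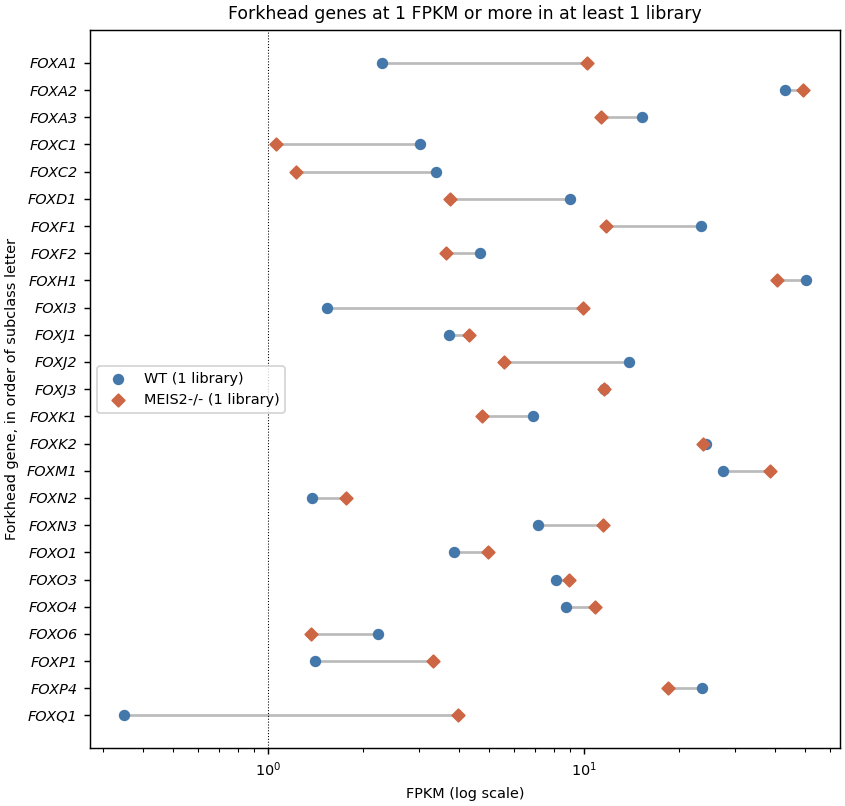
Levels in FPKM (x axis, log scale) of the 25 forkhead genes compared, in order of subclass letter, in the WT library (blue circles) and the MEIS2-/- library (orange diamonds). The dotted line marks 1 FPKM. The widest gaps are those of FOXQ1, FOXI3 and FOXA1, with MEIS2-/- higher, while FOXC1 and FOXC2 end near 1 FPKM in MEIS2-/- cells.

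Among the remaining subclasses known from single lineages, FOXI3, FOXQ1 and FOXD1 differed most. FOXI3, a factor of ectodermal placodes and pharyngeal arches, was at 1.53 FPKM in WT and 9.93 FPKM in MEIS2-/- cells, a log2 ratio of 2.62. Its paralogs FOXI1 and FOXI2 stayed at or under 0.28 FPKM in both libraries. FOXQ1, known from epithelia, had the largest log2 fold change of the family, 3.18, and it was the 1 forkhead gene that was compared only through its level in MEIS2-/- cells, so it had to be higher there. FOXD1, a factor of kidney stroma and retina, went the other way, from 8.98 FPKM in WT to 3.76 FPKM in MEIS2-/- cells, a log2 ratio of -1.23. FOXD2 was at 0.81 FPKM in WT and 0.07 FPKM in MEIS2-/- cells, below the limit in both.

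FOXH1 was the most abundant forkhead gene in WT cells and the second in MEIS2-/- cells, at 50.11 FPKM and 40.68 FPKM. Its log2 fold change was -0.30. FOXM1, the factor of dividing cells, followed in both libraries at 27.47 FPKM in WT and 38.56 FPKM in MEIS2-/- cells, a log2 ratio of 0.49. FOXH1, FOXA2 and FOXM1 together with FOXK2, FOXP4 and FOXF1 filled the first 6 places in WT and again in MEIS2-/- cells.

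The FOXK genes, repressors of autophagy and regulators of glucose use, stayed under 2-fold. FOXK2 was nearly level, at 24.23 FPKM in WT and 23.75 FPKM in MEIS2-/- cells. FOXK1 was at 6.87 FPKM and 4.76 FPKM, a log2 ratio of -0.52. Within FOXJ, FOXJ3 was practically equal in the 2 libraries, at 11.52 FPKM and 11.54 FPKM, while FOXJ2, a widely expressed activator, was at 13.85 FPKM in WT and 5.58 FPKM in MEIS2-/- cells. The log2 fold change of FOXJ2 was -1.30, and the ratio of FOXJ2 to FOXJ3 went from 1.20 in WT to 0.484 in MEIS2-/- cells. FOXJ1, the factor of motile cilia, was at 3.73 FPKM and 4.32 FPKM.

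Of the FOXP genes, which bind DNA as dimers and act mainly as repressors, FOXP4 was the abundant one, at 23.64 FPKM in WT and 18.44 FPKM in MEIS2-/- cells. FOXP1 was at 1.41 FPKM in WT and 3.33 FPKM in MEIS2-/- cells, a log2 ratio of 1.18 that became 0.85 with 1 FPKM added. FOXP2 and FOXP3, the factor of regulatory T cells, stayed at or under 0.33 FPKM. FOXN3, a repressor linked to the DNA damage checkpoint, was at 7.11 FPKM and 11.47 FPKM with a log2 fold change of 0.68, and FOXN2 was at 1.37 FPKM and 1.76 FPKM.

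The FOXO genes were all expressed and none reached 2-fold. FOXO4 was at 8.75 FPKM in WT and 10.80 FPKM in MEIS2-/- cells, FOXO3 at 8.13 FPKM and 8.95 FPKM, and FOXO1 at 3.87 FPKM and 4.96 FPKM. FOXO6 alone was lower in MEIS2-/- cells, at 2.22 FPKM and 1.36 FPKM. FOXO1 and FOXO4 had log2 fold changes of 0.35 and 0.30, and FOXO3 had 0.14, near the median of 0.12 for all genes.

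**Figure D3:**
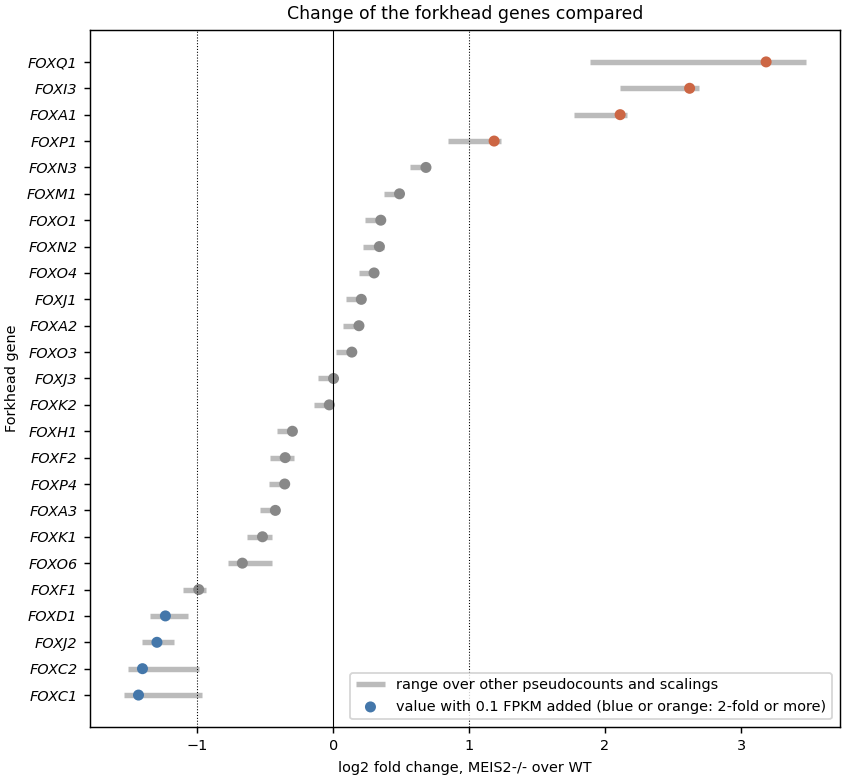
Log2 fold change, MEIS2-/- over WT (x axis), of the 25 forkhead genes compared, in order of size. Points give the value with 0.1 FPKM added (blue or orange at 2-fold or more), grey bars the range over other pseudocounts and library scalings, and dotted lines 2-fold. The bars of FOXP1, FOXF1, FOXC1 and FOXC2 cross a dotted line, and those of the other genes do not.

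The 20 forkhead genes below 1 FPKM in both libraries together held 4.42 FPKM in WT and 3.83 FPKM in MEIS2-/- cells, 1.45% and 1.28% of all forkhead FPKM. They include the factors of thyroid (FOXE1), lens (FOXE3) and ovary (FOXL2). The highest of them was FOXL2, at 0.89 FPKM in WT and 0.31 FPKM in MEIS2-/- cells, followed by FOXS1 at 0.83 FPKM and 0.78 FPKM. FOXB1 was listed at 0 in both libraries, 7 others were listed at 0 in WT alone, and 3 were listed at 0 in MEIS2-/- cells alone. FOXD4 and its copies FOXD4L1, FOXD4L3, FOXD4L4, FOXD4L5 and FOXD4L6 lay at or under 0.29 FPKM, and since their sequences are nearly identical, the split of reads among them is uncertain. No change is read from values this low.

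Set by the usual division of the family, class II (subclasses H, J, K, M, N, O and P) and class I (the remaining subclasses) kept nearly the same shares of the total in both libraries. This division was chosen after the values were seen. Of 27 class I genes, 10 were compared and 6 of these differed at least 2-fold, 3 higher (FOXQ1 through its MEIS2-/- level alone) and 3 lower. Of 18 class II genes, 15 were compared and 2 differed at least 2-fold, FOXP1 and FOXJ2. Over all genes compared the share was 15.8%. Class I made up 36.0% of forkhead FPKM in WT and 36.4% in MEIS2-/- cells. The median size of the log2 fold change, without its sign, was 1.32 in class I, 0.35 in class II and 0.38 over all genes compared.

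**Figure D4:**
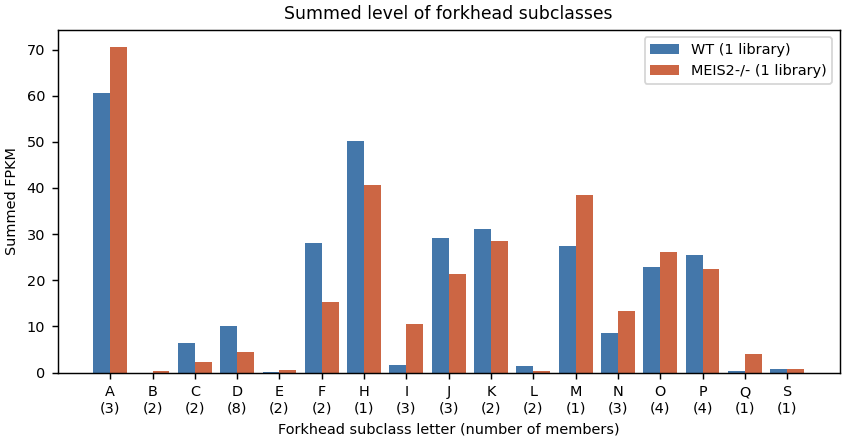
Summed FPKM (y axis) of 17 forkhead subclasses in the WT library (blue) and the MEIS2-/- library (orange), with the number of members in brackets under each letter (x axis). FOXA and FOXM are higher in MEIS2-/- cells, FOXF and FOXH lower, and FOXF goes from 28.07 FPKM to 15.38 FPKM.

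Lists of genes known to act with, above or under forkhead factors were then described in the same libraries. Of all genes compared, 7.84% were at least 2-fold higher and 7.97% at least 2-fold lower. Of the 12025 genes that reached 1 FPKM in both libraries, 688 were higher and 697 lower. Of 18 endoderm factors that act with FOXA, 16 were compared, 4 of them at least 2-fold higher and 5 at least 2-fold lower in MEIS2-/- cells. The median was -0.26. PROX1 and GSC reached 1 FPKM in WT alone, and of the 13 factors that reached it in both libraries 4 were higher and 3 lower. HNF4A, a nuclear receptor of visceral endoderm and liver, went from 6.40 FPKM to 29.08 FPKM, and MIXL1, PRDM1 and CEBPA were higher too. HHEX, LHX1 and OTX2, factors of the anterior endoderm, were lower, with log2 fold changes of -2.14, -1.78 and -1.76. SOX17 was at 141.01 FPKM in WT and 264.03 FPKM in MEIS2-/- cells, under 2-fold, and GATA4 and GATA6 were under 2-fold as well. Over the factors at 5 FPKM or more the median was 0.38, so its sign depends on the limit.

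Genes of yolk sac and liver-type endoderm known as FOXA and HNF targets were mostly low in WT. Of 19 listed genes 13 were compared, and 9 of these, TTR among them at 0.38 FPKM and 5.31 FPKM, reached 1 FPKM in MEIS2-/- cells alone and could only be higher there. The 4 that reached it in both libraries, APOA1, APOA2, FGA and FGB, were all at least 2-fold higher. FGB, a fibrinogen chain, went from 2.16 FPKM to 45.66 FPKM, APOA2 from 6.10 FPKM to 44.54 FPKM, APOA1 from 401.38 FPKM to 879.13 FPKM and FGA from 3.13 FPKM to 7.31 FPKM. ALB stayed near 0, at 0.03 FPKM and 0.11 FPKM. Of the 8 endoderm markers, which include FOXA2 and share 3 genes with this list, 7 were higher and 5 of them at least 2-fold, AFP and TTR through their MEIS2-/- level alone and 3 of the 6 that reached 1 FPKM in both libraries. Their summed level was 689 FPKM in WT and 1337 FPKM in MEIS2-/- cells, and their part in the difference of FOXA1 was not tested.

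Of 22 genes of the Nodal pathway around FOXH1, all were compared. In MEIS2-/- cells 3 (13.6%) were at least 2-fold higher and 5 (22.7%) at least 2-fold lower, beside 7.84% and 7.97% of all genes. The median was 0.05, and -0.06 after setting the median log2 ratio to 0. Of the 19 that reached 1 FPKM in both libraries, 2 were higher and 3 lower, since FGF8 reached it in MEIS2-/- cells alone and GDF3 and GSC in WT alone. NODAL, the ligand, went from 1.38 FPKM to 7.27 FPKM. The co-receptor gene CFC1 was lower, from 39.76 FPKM to 11.77 FPKM, and the ligands GDF3 and GDF1 were lower with log2 fold changes of -2.51 and -1.43. CFC1 has a near-identical copy and GDF1 shares a transcript with CERS1, so both values are uncertain. The SMAD partners of FOXH1 were practically level, SMAD2 at 6.35 FPKM and 6.04 FPKM, SMAD3 at 6.94 FPKM and 6.98 FPKM and SMAD4 at 6.87 FPKM and 7.72 FPKM. LEFTY2, a known FOXH1 target, was at 27.39 FPKM and 31.97 FPKM. GSC and LHX1, which respond to Nodal in the organizer, were lower, and MIXL1 was higher, so known targets of the pathway differed in direction.

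Around FOXC, 19 endothelial genes were listed and 17 compared, and the median was -1.23. In MEIS2-/- cells 10 (58.8%) were at least 2-fold lower and 2 (11.8%) at least 2-fold higher, beside 7.97% and 7.84% of all genes. Of the 15 that reached 1 FPKM in both libraries, 10 were lower and 1 higher. ETV2, the ETS factor that acts with FOXC on endothelial enhancers, was at 109.62 FPKM in WT and 17.54 FPKM in MEIS2-/- cells. KDR was at 323.77 FPKM and 61.98 FPKM, KLF2 at 34.51 FPKM and 6.49 FPKM and NOS3 at 20.96 FPKM and 5.40 FPKM. CXCR4, which FOXC factors can activate and which endoderm also expresses, was higher, at 24.13 FPKM and 50.90 FPKM. The endothelium markers, 5 of which are also in this list, moved with FOXC1 and FOXC2 as given above, and their part in the difference of both genes was not tested.

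The hedgehog pathway is known to act above FOXF1. Of 14 genes, 13 were compared, with a median of 0.35. In MEIS2-/- cells 4 (30.8%) were at least 2-fold higher and none at least 2-fold lower, beside 7.84% and 7.97% of all genes. Of the 11 that reached 1 FPKM in both libraries, 3 were higher. IHH was at 6.14 FPKM in WT and 40.60 FPKM in MEIS2-/- cells, and SHH, past the limit in MEIS2-/- cells alone, at 0.83 FPKM and 5.57 FPKM. The ligand DHH was below the limit at 0.20 FPKM and 0.14 FPKM. The readouts of the pathway differed less, PTCH1 at 10.01 FPKM and 12.80 FPKM and GLI1 at 2.68 FPKM and 2.37 FPKM. GAS1, a co-receptor, was at 4.58 FPKM and 14.80 FPKM.

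Among 22 genes of splanchnic and paraxial mesoderm, 17 were compared, with a median of -1.02. In MEIS2-/- cells 10 (58.8%) were at least 2-fold lower and 1 (5.88%) at least 2-fold higher, beside 7.97% and 7.84% of all genes. Of the 14 that reached 1 FPKM in both libraries, 8 were lower and 0 higher, since PRRX1 and MESP2 reached it in WT alone and WNT2 in MEIS2-/- cells alone. HAND2 was at 44.27 FPKM in WT and 8.08 FPKM in MEIS2-/- cells, NKX2-5 at 59.77 FPKM and 16.55 FPKM MESP1 at 8.12 FPKM and 3.09 FPKM and TBX6 at 5.38 FPKM and 2.03 FPKM. BMP4, which acts above FOXF1, was at 272.89 FPKM and 134.75 FPKM. HAND1, GATA4 and PDGFRA stayed under 2-fold with log2 fold changes of -0.43, -0.13 and -0.45, and WNT2 was at 0.35 FPKM and 4.23 FPKM. Of 8 mesoderm markers, which include FOXF1, 6 were lower and 2 of these at least 2-fold, TBXT and MIXL1 were at least 2-fold higher, and the summed level was 642 FPKM in WT and 446 FPKM in MEIS2-/- cells. Their part in the difference of FOXF1 was not tested.

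FOXO factors are controlled mainly by phosphorylation, which mRNA does not show, so the genes above and under them are given beside them. The median of 25 genes of the AKT and SGK1 pathway was 0.24. Of these, 1 (4.0%) was at least 2-fold higher and none at least 2-fold lower, beside 7.84% and 7.97% of all genes. The gene was SGK1, a kinase that phosphorylates FOXO3, at 13.03 FPKM in WT and 31.73 FPKM in MEIS2-/- cells. Of 27 FOXO target genes, 21 were compared, with a median of -0.37. Of these, 8 (38.1%) were at least 2-fold lower and 1 (4.76%) at least 2-fold higher, beside 7.97% and 7.84% of all genes. TXNIP, which binds thioredoxin, was at 103.41 FPKM in WT and 4.26 FPKM in MEIS2-/- cells. The cell cycle inhibitor CDKN1A was at 189.67 FPKM and 33.49 FPKM, GADD45A at 180.44 FPKM and 52.62 FPKM and KLF2 lower as given above. PDK4, a kinase that inhibits pyruvate dehydrogenase, was the higher gene, at 0.98 FPKM and 11.46 FPKM, and was compared through its MEIS2-/- level alone. Of the 20 that reached 1 FPKM in both libraries, 8 were lower and 0 higher. CDKN1B, CCNG2, CAT, SOD2 and the 3 sestrin genes stayed under 2-fold. CDKN1A, GADD45A and BBC3 are also known p53 targets, and TXNIP also responds to glucose.

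All 22 FOXM1 target genes of G2 and mitosis were compared and none differed 2-fold in either direction, beside 15.8% of all genes. Their log2 fold changes ran from -0.65 for NEK2 to 0.93 for CENPE, with a median of -0.18, and 14 of 22 were lower in MEIS2-/- cells while FOXM1 itself was higher. CCNB1 was at 49.50 FPKM and 58.79 FPKM, PLK1 at 83.53 FPKM and 98.15 FPKM and AURKB at 81.17 FPKM and 59.28 FPKM. FOXJ1 was accompanied by few genes of multiciliated cells. Of 18 listed, 5 reached 1 FPKM, none differed 2-fold, with a median of -0.06, and the dynein genes DNAH5 and DNAI2 were listed at 0 in MEIS2-/- cells and at 0.02 FPKM and 0.09 FPKM in WT.

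A list written around FOXD3, which is not analysed here, held 12 genes of neural crest and pluripotency. Of the 7 compared, POU5F1, NANOG and TFAP2A were at least 2-fold higher and MSX1 and SOX10 at least 2-fold lower, with a median of -0.65 that was 0.45 over all 12. POU5F1 has near-identical pseudogenes, so its level is uncertain. Most markers of epithelium or amnion were higher in MEIS2-/- cells, as FOXI3 and FOXQ1 were, but KRT8 and KRT18 were not. Of 8 markers, 6 were higher in the MEIS2-/- library and 5 at least 2-fold (VTCN1 through its MEIS2-/- level alone), among them EPCAM at 62.01 FPKM and 178.61 FPKM, CDH1 at 10.68 FPKM and 33.35 FPKM and GABRP at 1.06 FPKM and 11.42 FPKM. KRT8 and KRT18 were at least 2-fold lower, and as the most abundant genes of the list they took its summed level from 4157 FPKM in WT to 2023 FPKM in MEIS2-/- cells. Of 8 markers of undifferentiated cells, 6 were higher, 3 of the 7 compared at least 2-fold (POU5F1, NANOG and ZFP42), with SOX2 near 0 at 0.09 FPKM and 0.15 FPKM. Their summed level was 639 FPKM and 1898 FPKM, of which POU5F1, uncertain as said, held 285.65 FPKM and 1454.14 FPKM. Of 7 germ cell markers 6 were higher, 4 of them at least 2-fold (TFAP2C, NANOS3, KIT and PRDM1), with a summed level of 206 FPKM and 470 FPKM. The part of these cell types in the differences of FOXI3 and FOXQ1 was not tested.

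**Figure D5:**
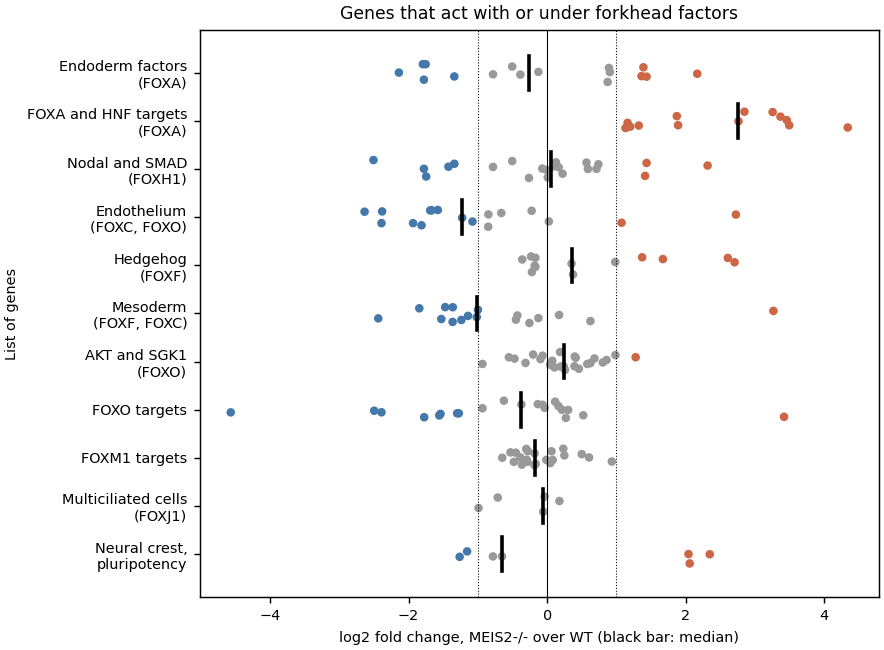
Log2 fold change, MEIS2-/- over WT (x axis), of each compared gene in 11 lists of genes that act with or under forkhead factors (y axis). Each point is a gene (orange at least 2-fold higher, blue at least 2-fold lower, grey under 2-fold), black bars are medians and dotted lines mark 2-fold. The FOXA and HNF targets all lie to the right, 9 of the 13 having passed 1 FPKM only in MEIS2-/- cells, and the FOXM1 targets all lie between the dotted lines.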

How the data were processed

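RNA-Seq was analysed from 1 WT and 1 MEIS2-/- library of H1 cells at day 4, with groups taken from the labels. The deposited files hold 1 FPKM value per gene, computed by the authors, with 2 decimals and no counts, so the depth and the counting error are unknown. The submitters' processing notes name BWA, Bowtie, RSEM and hg19 without roles or versions. RSEM divides reads among near-identical copies, so values of FOXD4 and its copies, and of FOXO3 beside FOXO3B, are uncertain.

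From these values log2((MEIS2-/- + 0.1)/(WT + 0.1)) was computed with Python 3.11.15, numpy 2.4.6 and pandas 2.3.3 over the 13075 genes that reached 1 FPKM in one library or both, and a difference of 2-fold was counted. No p-value was computed. The script was checked on simulated data. Alternatives were pseudocounts of 1 and 0.01 FPKM, no filter or one of 5 FPKM, thresholds of 1.5-fold and 4-fold, and rescaling to a median log2 ratio of 0, by TMM or to TPM.

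Every forkhead gene was named. From each list the genes with the largest change among those that reached 5 FPKM and differed at least 2-fold were named, up to 4 in each direction, together with markers near 0. Other genes of the lists were named for their role after their values were seen. The members and lists were chosen with earlier results of these data known. Promoters came from RefSeq (GRCh38.p14), matched by NCBI Gene number, and no coordinate was carried over to hg19. Protein domains had been planned and are not analysed here. Values of 2 genes are not reported here.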

Additional observations from a re-analysis of the deposited data

How the results depend on the processing

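Of 399 values recomputed over 50 results under 9 alternative settings, 361 stayed on their side of the threshold or, for counts, within 1.5 times. Of these 361, 12 values under 2-fold changed sign. The median of the list around FOXD3 went from -0.65 to 0.45 without a filter, 0.69 with one of 5 FPKM and 0.72 with TPM, that of the endoderm factors from -0.26 to 0.38 with a filter of 5 FPKM, and the other changes were within 0.12 of 0, in the family and Nodal medians and FOXJ3. The main counts were 4 forkhead genes higher, 4 lower and 7 subclasses with a changed member. With 1 FPKM added 2 genes were lower, since FOXC1 and FOXC2 went under 2-fold, and the median of the mesoderm list went from -1.02 to -0.87. Without a filter 11 forkhead genes were higher and 12 lower, in 12 subclasses, and the mesoderm median was -0.44. With a filter of 5 FPKM 2 were higher and 2 lower, in 4 subclasses. At 4-fold none (0) was lower and 3 subclasses held a changed member. Rescaled to TPM, which let 30 forkhead genes past the filter, 7 were lower.

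Over all genes, 1025 higher and 1042 lower became 623 and 693 with 1 FPKM added, 1567 higher without a filter, 554 and 598 with a filter of 5 FPKM, 2345 and 1886 at 1.5-fold and 194 and 241 at 4-fold. Setting the median log2 ratio to 0 lowered all log2 fold changes by about 0.12, which took the family median from 0.00 to -0.11, FOXJ3 from 0.00 to -0.11 and FOXF1 past 2-fold. No paired analysis was possible because each genotype has 1 library. The same limit leaves culture, clone and genotype confounded, so they cannot be told apart.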
